A study of Mus musculus with 16 samples.

Results

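The nuclear-encoded subunits of respiratory complexes II, III, IV and V, together with cytochrome c, were followed in gastrocnemius, a calf muscle built mostly of fast fibres in mice. They were chosen by gene symbol, as Sdha, Sdhb, Sdhc, Sdhd, Cyc1, Cycs and the genes whose symbols begin with Uqcr, Cox4 to Cox8 or Atp5. Pseudogene symbols marked -ps were left out. Of 47 such genes with a probe set assigned to 1 gene, 44 were brighter than the median of the array on 8 or more of 16 arrays, among 13601 genes that passed the same filter. They were 4 genes of complex II, 8 of complex III, cytochrome c, 14 of complex IV and 17 of complex V.

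The KO group was 8 male FVB/n mice with Mx1-Cre and loxP-flanked Foxo1, Foxo3 and Foxo4, whose genotype the labels also call a knockdown. The WT group was 8 male littermates that carried the same floxed alleles without Cre, so that their Foxo genes were flanked by loxP sites too. Every mouse, WT included, received 3 injections of polyinosine:cytidine at 4 to 5 weeks of age, ate a diet with 58% fat for 8 weeks and was 16 weeks old at sampling, and each gave 1 array. The labels describe the endothelium as the site of deletion. The Mx1 promoter is driven by interferon and is not restricted to endothelial cells, and Cre was carried by all KO mice and no WT mouse, so that effects of Cre and of the deletion cannot be told apart. Whole muscle was used, in which fewer cells of a type and less RNA per cell cannot be told apart.

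The respiratory chain sits in the inner mitochondrial membrane. Complex II, succinate dehydrogenase, feeds electrons from the citric acid cycle to ubiquinone, complex III passes them to cytochrome c, complex IV hands them to oxygen, and complex V, the ATP synthase, uses the proton gradient that complexes III and IV help to build. Complex II is encoded wholly in the nucleus, whereas complexes III, IV and V also hold subunits encoded by mitochondrial DNA. Some small subunits of complex IV exist as a pair of isoforms, a muscle and heart form and a form made in most tissues. Skeletal muscle fibres rely on this chain for sustained work, and slow fibres carry more mitochondria than most fast fibres.

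The arrays carried the marks of muscle. Values are log2 expression, differences are KO minus WT, and a gene is called where limma gave an adjusted p under 0.05. The 10 skeletal muscle markers averaged 12.64 ± 0.07 log2 units in KO mice and 12.63 ± 0.05 in WT mice (SD, n = 8 each), and 0 of 10 passed the test. Fast fibre markers (0 of 13 called) averaged 12.49 ± 0.08 in KO mice and 12.48 ± 0.06 in WT mice, and slow fibre markers (0 of 11 called) averaged 8.41 ± 0.54 in KO mice and 8.12 ± 0.77 in WT mice, where WT mouse 5 stood at 6.29 and the other WT mice at 7.94 to 8.74. The targeted transcripts differed by 0.07 for Foxo1, 0.50 for Foxo3 and -0.24 for Foxo4 (log2, KO minus WT), none of them called, and it was not analysed here where their probes lie relative to the removed exons. Among markers of other cell types, 8 of 12 endothelial, 2 of 10 macrophage and 1 of 7 adipocyte markers were called higher in KO mice, and none of these lists had a member called lower.

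No subunit of complexes II to V passed the test between KO and WT mice. With limma and Benjamini-Hochberg adjustment over all genes tested, 0 of 44 members had an adjusted p under 0.05, and their lowest adjusted p was 0.103. Of all 13601 genes tested, 1.83% were called (249 genes), 1.53% higher (208 genes) and 0.301% lower (41 genes) in KO mice. Centring each array on its median gave 126 higher and 67 lower, and quantile normalization 155 higher and 59 lower. At an unadjusted p under 0.05, limma gave 2 members higher and 1 lower, 6.82% of the 44, against 17.3% of all genes (10.5% higher and 6.82% lower). The groups overlapped for all 44 members, and they did not overlap for 0.353% of all genes. The median difference over the members was -0.026 log2 units, and over all genes tested it was 0.00075. Of the 44 members, 29 (65.9%) were below 0, against 49.8% of all genes, and with centring, which moved the median of all genes to -0.052, 39 members were below 0, against 64.9% of all genes. The 95% intervals put a bound on the difference of 1 gene at a time, without adjustment for the number of genes and on the values as deposited. For 41 members (93.2%) the whole interval lay within 0.5 log2 units of 0, as it did for 88.1% of all genes. The exceptions were Cox6a1 (0.16 to 0.73), Cox7b (-0.52 to 0.0057) and Atp5g1 (-0.51 to 0.078). These counts and intervals read only the brightest probe set of each gene. For Cycs a dimmer probe set differed by -0.56 (SE 0.23), so the bound does not cover every Cycs probe set.

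**Figure D1:**
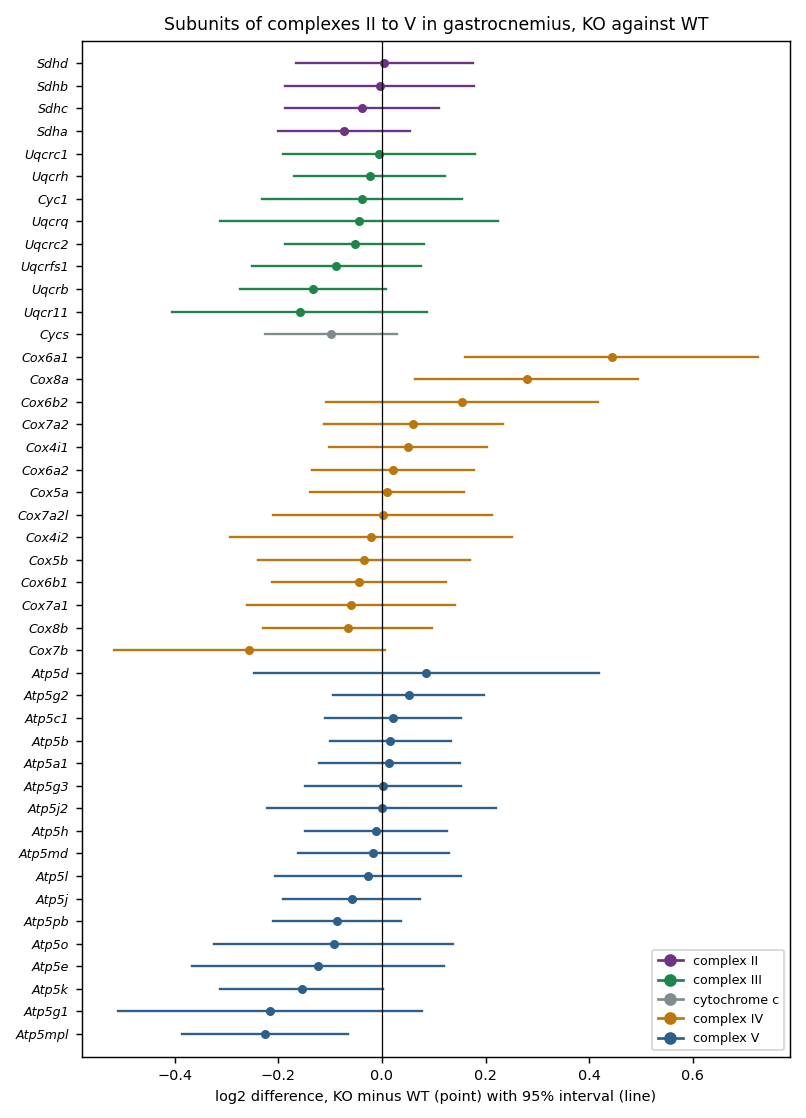
Difference between KO and WT mice for each of the 44 subunits, grouped by complex. Points are log2 KO minus WT from limma (n = 8 each) and lines are 95% intervals, and the intervals of Cox6a1, Cox8a and Atp5mpl do not reach 0, although no member passed after adjustment over all genes.

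The subunits of complex II stayed close to 0. The median difference was -0.022 over 4 members, which ran from -0.074 for Sdha to 0.0048 for Sdhd, and 0 of 4 were called (lowest limma adjusted p = 0.563). Sdha, the flavoprotein that oxidises succinate, ran from 11.09 through a median of 11.34 to 11.46 log2 units in KO mice, and from 11.30 through 11.36 to 11.47 in WT mice. The highest values of the groups nearly coincided, and 3 KO mice lay below every WT mouse. Sdhb, the iron-sulphur subunit, averaged 10.16 ± 0.23 in KO mice and 10.16 ± 0.10 in WT mice (SD, n = 8 each). The membrane anchors Sdhc and Sdhd differed by -0.039 (SE 0.071) and 0.0048 (SE 0.082). For Sdhb, the KO mice reached beyond the WT range on both sides, with 3 above every WT mouse and 2 below.

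In complex III all 8 measured members were below 0 and none was called. The median was -0.048, the range -0.16 to -0.0058, and the lowest limma adjusted p 0.311. Uqcrb, the subunit that helps to hold the ubiquinone site, ran from 12.18 through 12.54 to 12.71 in KO mice and from 12.51 through 12.64 to 12.73 in WT mice. The difference was -0.13 (SE 0.067). KO mouse 2 was the lowest of all 16, and without it the difference was -0.087. Uqcr11, the smallest subunit, averaged 7.19 ± 0.28 in KO mice and 7.35 ± 0.22 in WT mice (SD, n = 8 each), so that they differed by -0.16 (SE 0.12). The catalytic subunits were closer to 0: Uqcrfs1, the Rieske iron-sulphur protein, differed by -0.089 (SE 0.078) and Cyc1, cytochrome c1, by -0.039 (SE 0.092). The core proteins Uqcrc2 and Uqcrc1 differed by -0.053 and -0.0058, and Uqcrh and Uqcrq by -0.024 and -0.044. Uqcr10 was not measured here, since its probe set carries a second gene symbol.

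Cycs, the soluble electron carrier between complexes III and IV, depended on the probe set read. Its brightest probe set ran from 12.19 through 12.23 to 12.47 in KO mice and from 12.23 through 12.33 to 12.52 in WT mice, a difference of -0.099 (SE 0.061, limma adjusted p = 0.417). In KO mice 7 values lay between 12.19 and 12.29 and mouse 8 stood apart at 12.47. The annotation gives Cycs 5 probe sets, 2 of them with identical values. Those 2 averaged 10.75 ± 0.24 in KO mice and 11.02 ± 0.19 in WT mice, a difference of -0.26 (SE 0.10, limma adjusted p = 0.197 over 14246 probe sets). Another, at 10.10 ± 0.69 in KO mice and 10.66 ± 0.24 in WT mice, differed by -0.56 (SE 0.23, adjusted p = 0.212), with KO mouse 2 at 8.58, and the dimmest differed by -0.0062. Unadjusted limma p-values were 0.0197 for the 2 identical probe sets and 0.0231 for the probe set at -0.56. Cytochrome c is known for many processed pseudogene copies in the mouse genome. Which copy each probe set reads was not analysed here.

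Complex IV held the widest differences among the members, and both of its members with an unadjusted p under 0.05 in limma were isoforms made in most tissues. Its median was 0.0057 over 14 members, 8 above 0 and 6 below, with 0 of 14 called, and with centring the median was -0.047. Cox6a1, the widely made form of subunit VIa, ran from 9.49 through 10.23 to 10.60 in KO mice and from 9.25 through 9.65 to 10.07 in WT mice. Of 8 KO mice, 5 lay above every WT mouse, and KO mouse 8 at 9.49 lay well under the other KO mice, the next being 9.95. The difference was 0.44 (SE 0.13), 1.36-fold, with a limma adjusted p of 0.103. Without KO mouse 8 it was 0.54 and passed the test (adjusted p = 0.0120), whereas 15 fits without 1 of the other mice did not call it.

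Cox6a2, the muscle and heart form of the same subunit, averaged 10.88 ± 0.17 in KO mice and 10.85 ± 0.11 in WT mice (SD, n = 8 each), and KO minus WT was 0.021 (SE 0.075). Cox8a, the widely made form of subunit VIII, ran from 7.71 through 7.95 to 8.45 in KO mice and from 7.40 through 7.75 to 8.02 in WT mice. KO mice 5 and 6, at 8.33 and 8.45, were the highest, 3 KO mice lay above every WT mouse, and the difference was 0.28 (SE 0.10, 1.21-fold, limma adjusted p = 0.172). Its muscle partner Cox8b ran from 10.69 through 10.98 to 11.26 in KO mice and from 10.84 through 11.05 to 11.11 in WT mice, a difference of -0.066 (SE 0.078). In the remaining pair of this kind, Cox7a2 differed by 0.060 (SE 0.082) and the muscle form Cox7a1 by -0.060 (SE 0.096). The widely made form thus stood above its muscle partner in the KO minus WT difference by 0.42 for subunit VIa, 0.35 for subunit VIII and 0.12 for subunit VIIa. No test was made of these gaps.

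**Figure D2:**
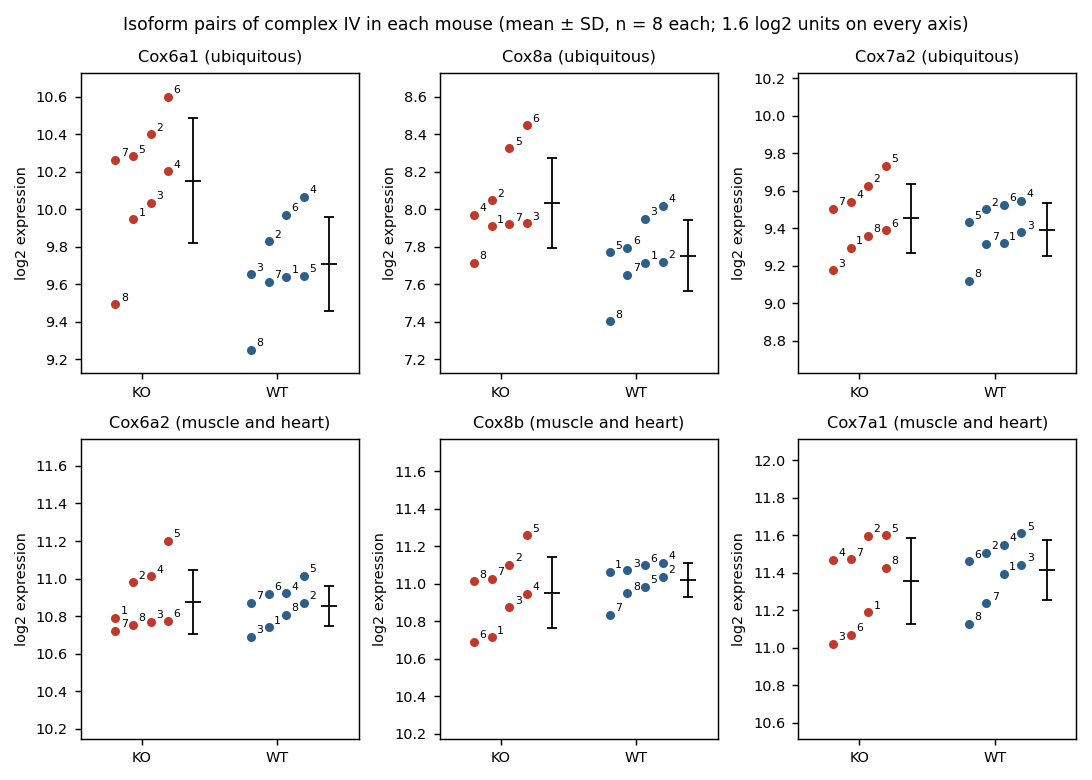
Values of the isoform pairs of subunits VIa, VIII and VIIa in each mouse, with the widely made form above and the muscle and heart form below, KO mice left (red) and WT mice right (blue), and the mean ± SD beside each group. All axes span 1.6 log2 units, and digits are mouse numbers. Cox6a1 lies at 9.49 to 10.60 in KO mice and 9.25 to 10.07 in WT mice, whereas 7 of 8 KO mice lie within the WT range of Cox6a2.

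Endothelial markers, 8 of 12 called, were higher in KO mice, the direction of the Cox6a1 and Cox8a differences, and so were 2 of 10 macrophage markers. The 12 endothelial markers averaged 7.60 to 8.15 log2 units in KO mice and 7.31 to 7.68 in WT mice, and the 10 macrophage markers 6.50 to 7.83 in KO mice and 6.28 to 6.98 in WT mice. KO mouse 8, the lowest KO mouse for Cox6a1 and Cox8a, was also the lowest KO mouse in both marker lists, at 7.60 and 6.50, and in the Schwann cell, adipocyte and red cell lists, at 6.02, 6.24 and 5.62. KO mice 1 and 3, the next lowest for Cox6a1 at 9.95 and 10.03, had the highest macrophage means, 7.57 and 7.83. The part of these cells in the isoform values was not tested.

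The sequences before the start of Cox6a1, Cox8a and Cox8b are shown. Cox6a1 and Cox8a had the highest differences among the members, and their muscle partners Cox6a2 and Cox8b did not. The sequences were searched for the binding words of regulators of mitochondrial and muscle genes. Each is the 250 bases up to the start site from RefSeq (GRCm38.p6), 5′ to 3′, for Cox6a1 (chr5:115348959-115349208, minus strand), Cox8a (chr19:7217617-7217866, minus strand) and Cox8b (chr7:140900447-140900696, minus strand). Capitals mark NRF-1 words (GCGC, any base, then TGCGC) and ETS words (CCGGAA) in Cox6a1 and Cox8a, and the E-box CAGCTG of myogenic factors in Cox8b, on either strand. Cox6a2, Cox7a1 and Cox7a2 are not shown.
Cox6a1: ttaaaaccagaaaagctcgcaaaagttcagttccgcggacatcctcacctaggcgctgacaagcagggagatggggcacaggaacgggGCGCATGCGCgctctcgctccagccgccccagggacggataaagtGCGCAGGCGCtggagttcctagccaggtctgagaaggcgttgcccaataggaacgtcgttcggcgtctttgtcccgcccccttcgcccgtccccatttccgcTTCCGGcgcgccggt
Cox8a: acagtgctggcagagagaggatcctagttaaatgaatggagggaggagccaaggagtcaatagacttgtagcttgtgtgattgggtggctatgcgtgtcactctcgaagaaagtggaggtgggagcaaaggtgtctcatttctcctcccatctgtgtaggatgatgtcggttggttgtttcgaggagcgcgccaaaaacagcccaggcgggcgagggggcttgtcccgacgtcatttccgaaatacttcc
Cox8b: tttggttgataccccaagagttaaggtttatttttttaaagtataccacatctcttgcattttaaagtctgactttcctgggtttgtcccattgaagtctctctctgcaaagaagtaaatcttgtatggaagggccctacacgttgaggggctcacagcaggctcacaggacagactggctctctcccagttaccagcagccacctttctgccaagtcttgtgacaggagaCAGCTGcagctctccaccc
The Cox6a1 window held 2 NRF-1 words and 1 ETS word, the Cox8b window 1 E-box, and the Cox8a window none of the 3 in these letters. Over windows of the same length the NRF-1 word was found in 7 of 37 windows of the members (18.9%), which cover 34 of the 44 genes, and in 3.74% of 32851 windows of all genes. The ETS word was found in 32.4% of the members' windows and 12% of all, and the E-box in 5.41% of the members' windows and 13% of all. The FoxO word GTAAACA lay in 1 member window (2.70%), that of Cox7a2, against 3.17% of all. The ERR word AAGGTCA lay in 5.41% of the members' windows and 4.08% of all, and the TATA word TATAAA in 5.41% of the members' windows and 12.4% of all. Both strands were searched, a stretch that matched on both was counted once, and different words did not overlap in the members' windows. These are matches of letters and not measured binding.

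None of the other subunits of complex IV was called. Cox7b, a small subunit from the X chromosome, ran from 9.56 through 10.35 to 10.59 in KO mice and from 10.32 through 10.45 to 10.94 in WT mice. KO mouse 2 was far below and WT mouse 1 far above the others, and the difference was -0.26 (SE 0.12, limma adjusted p = 0.297). Without KO mouse 2 it was -0.16. A second, dimmer Cox7b probe set differed by 0.12 (SE 0.12), and the 2 did not follow each other across mice (r = -0.077 over 16 arrays, a description only). With the mean of both the difference was -0.066. Cox4i1, the common form of subunit IV, differed by 0.050 (SE 0.073), and Cox4i2, the form of lung and low oxygen, by -0.021 (SE 0.13), a value that changed sign without some single mice. Cox6b1 and the testis form Cox6b2 differed by -0.044 (SE 0.080) and 0.15 (SE 0.13), the value of Cox6b2 being 0.095 without KO mouse 2. Cox5a and Cox5b, which surround the catalytic core, differed by 0.010 and -0.035. A second Cox5b probe set, at 4.57 on average, was below the filter. It did not follow the one used (r = 0.051 over 16 arrays, a description only), and which genomic copy each reads was not analysed here. Cox7a2l, which helps complexes III and IV to form supercomplexes, differed by 0.0012. Cox7c (above the array median on 4 of 16 arrays), Cox7b2 and Cox8c (on 0) were below the filter, and Cox6c had probe sets with a second symbol only. The member nearest inside the filter was Atp5j2, above the median on 14 arrays.

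No subunit of complex V was called. The median was -0.017 over 17 members, 6 above 0 and 11 below, over differences of -0.23 to 0.086. Atp5mpl, a small proteolipid that co-purifies with the ATP synthase, ran from 8.81 through 9.07 to 9.36 in KO mice and from 9.06 through 9.29 to 9.40 in WT mice. Of 8 KO mice, 4 lay below every WT mouse, and the difference was -0.23 (SE 0.077, 0.855-fold, limma adjusted p = 0.140). Atp5k, subunit e of the membrane part, ran from 7.98 through 8.16 to 8.51 in KO mice and from 8.17 through 8.33 to 8.48 in WT mice, a difference of -0.16 (SE 0.075, adjusted p = 0.294). For Atp5k, KO mouse 5 was the highest of all 16 and 4 KO mice lay below every WT mouse.

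The rotor ring is built of subunit c, made from Atp5g1, Atp5g2 and Atp5g3, which give the same mature protein from different precursors. Atp5g1 averaged 5.07 ± 0.36 in KO mice and 5.28 ± 0.25 in WT mice (SD, n = 8 each), and KO minus WT was -0.22 (SE 0.14, limma adjusted p = 0.444). Without KO mouse 4 it was -0.12. Atp5g2 and Atp5g3 differed by 0.051 (SE 0.069) and 0.0021 (SE 0.072). Atp5b, the catalytic beta subunit, averaged 12.65 ± 0.10 in KO mice and 12.63 ± 0.06 in WT mice, a difference of 0.016 (SE 0.056). Atp5a1, the alpha subunit, differed by 0.014, and Atp5c1, the central stalk, by 0.021. Atp5d, also of the central stalk, was among the widest between mice, at 8.49 ± 0.44 in KO mice and 8.41 ± 0.24 in WT mice. Atp5pb of the peripheral stalk differed by -0.087 (SE 0.059) and Atp5e of the central stalk by -0.12 (SE 0.12). A second, dimmer Atp5e probe set differed by 0.0096 (SE 0.082). The remaining members Atp5o, Atp5j, Atp5l, Atp5md, Atp5h and Atp5j2 lay between -0.094 and -0.00073.

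The KO mice were spread more widely than the WT mice, and several complexes were low or high in the same animals. The SD over mice was larger in KO mice for 42 of 44 members (95.5%), and for 63.8% of all genes tested. The exceptions were Atp5g3 and Cycs, the latter in its brightest probe set only. The SD was also larger in KO mice for 27 of 32 complex I subunits (84.4%) and 10 of 10 mitochondrially encoded subunits. All these genes were read in the same mice, so the counts are not separate observations. The median SD of a member was 0.18 log2 units in KO mice and 0.12 in WT mice, against 0.19 in KO mice and 0.16 in WT mice over all genes. No test of this spread was made.

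**Figure D3:**
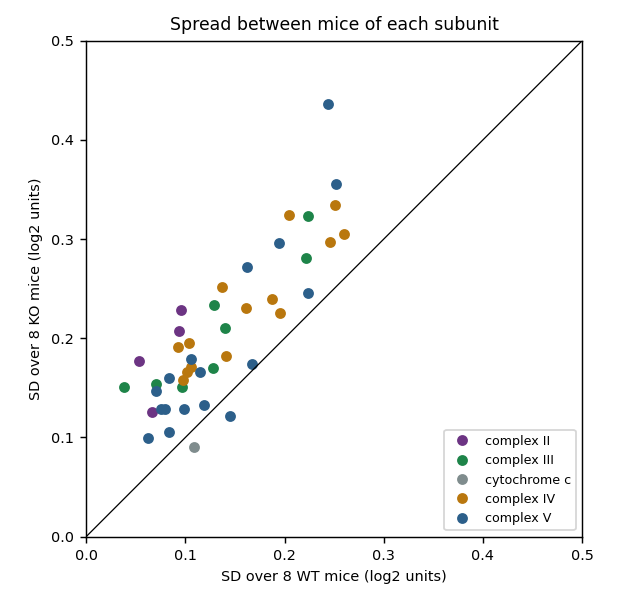
SD over the 8 KO mice (vertical axis) against the SD over the 8 WT mice (horizontal axis) for each of the 44 subunits, in log2 units, coloured by complex, with the line of equal spread. Of 44 points, 42 lie above the line.

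Averaged over its members, complex II stood at 10.14, 9.98 and 10.03 in KO mice 1, 3 and 6, at 10.18 to 10.44 in the other KO mice and at 10.15 to 10.35 in WT mice. Complex III stood at 9.14, 9.06 and 9.07 in KO mice 1, 3 and 6, at 9.27 to 9.52 in the other KO mice and at 9.15 to 9.46 in WT mice. Complex V stood at 8.87, 8.82 and 8.82 in KO mice 1, 3 and 6, at 8.98 to 9.19 in the other KO mice and at 8.94 to 9.14 in WT mice. In these complexes the same 3 KO mice lay below every WT mouse, and KO mouse 5 lay above every WT mouse. Complex IV, at 9.10, 9.08 and 9.15 in KO mice 1, 3 and 6, stayed within the WT range of 9.07 to 9.36 in those mice. KO mouse 5 was the highest KO mouse for 24 of 44 members, KO mouse 6 the lowest for 17 and KO mouse 3 for 13.

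KO mouse 3 lay below every WT mouse for 27 of 44 members, where 13.9% of all genes did so in that mouse. The numbers were 26 for KO mouse 6 (17.1% of all genes) and 18 for KO mouse 1 (15.7%). KO mouse 5 lay above every WT mouse for 21 members, where 16.3% of all genes did so. KO mouse 8 lay below every WT mouse for 8 members (12.7% of all genes) and above for 1 (10.3% of all genes). Among WT mice, mouse 8 was the lowest of its group for 22 members and mouse 4 the highest for 17.

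**Figure D4:**
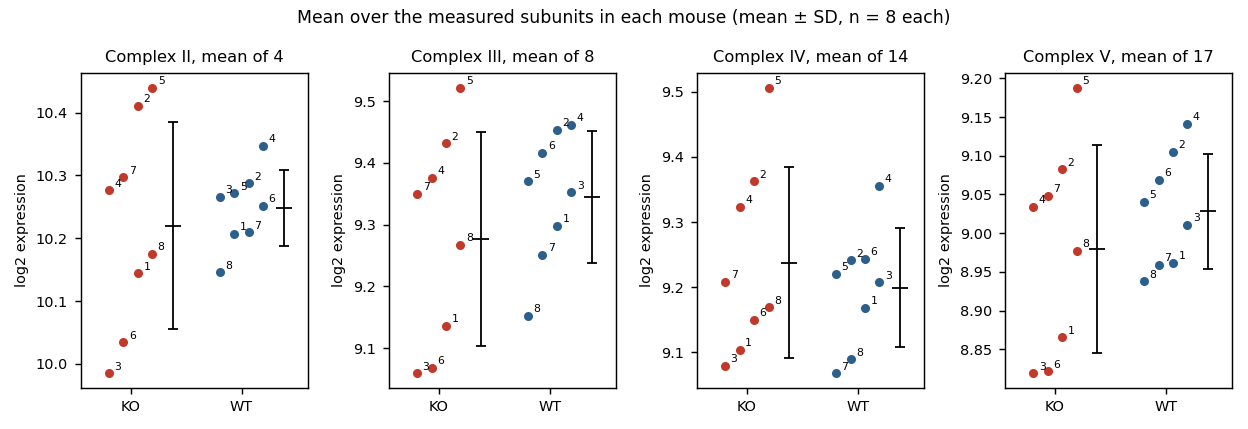
Mean log2 expression over the measured subunits of complexes II, III, IV and V in each mouse, KO mice left (red) and WT mice right (blue), with the mean ± SD beside each group and digits for mouse numbers. KO mice 1, 3 and 6 lie lowest and KO mouse 5 highest in complexes II, III and V, and the groups overlap in all of them.

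Some other genes were also low in KO mice 1, 3 and 6, and others were not. The 32 complex I subunits averaged 9.11, 9.06 and 9.03 there, against 9.20 to 9.37 in the other KO mice. The skeletal muscle markers averaged 12.58, 12.54 and 12.59 there, against 12.63 to 12.75 in the other KO mice, but inside the WT range of 12.53 to 12.72. Fast fibre markers were at 12.57, 12.63 and 12.41 there, against 12.39 to 12.52 in the other KO mice. Macrophage markers were at 7.57, 7.83 and 7.01 there, against 6.50 to 6.92. Slow fibre markers were at 7.88 and 7.54 in KO mice 1 and 3 but at 8.76 in KO mouse 6. The part of fibre type and of other cells in these levels was not tested. KO mouse 2 followed another course. It was above every WT mouse for 13 of 44 members, where 27.2% of all genes were above in that mouse, but the lowest of all 16 for Uqcrb (12.18) and Cox7b (9.56), and its array median of 4.43 was also the lowest.

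**Figure D5:**
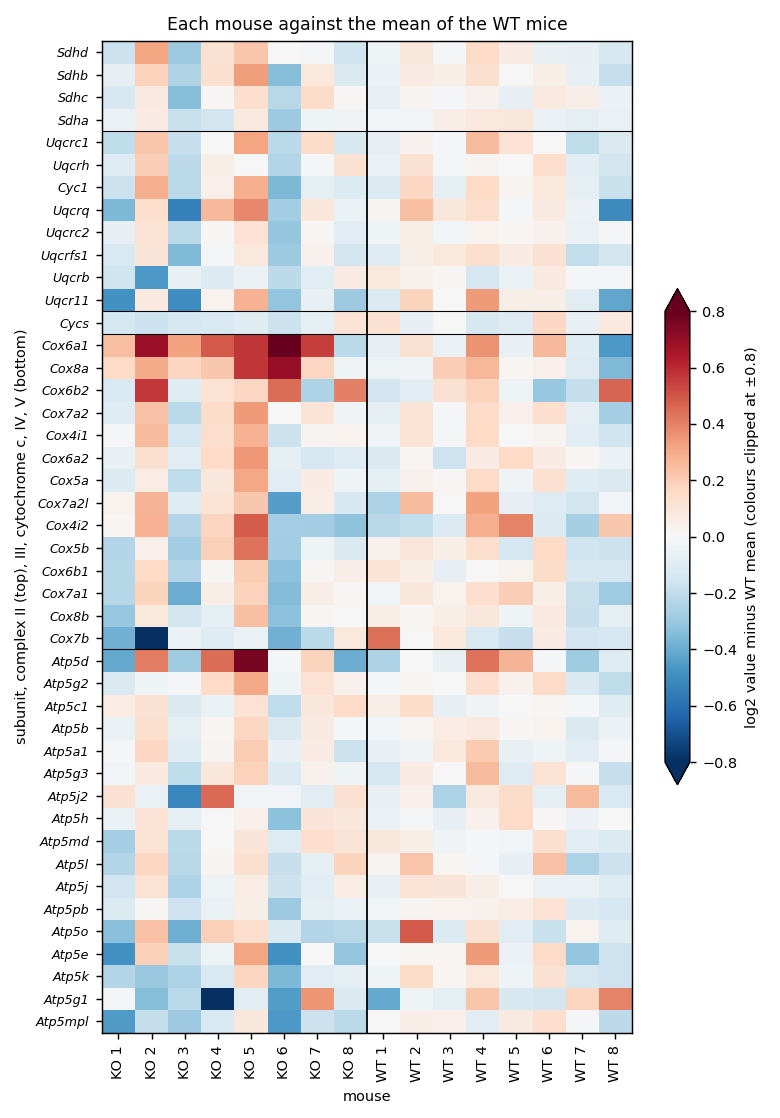
Value of each of the 44 subunits (rows, by complex) in each mouse (columns, KO mice left and WT mice right) minus the mean of the 8 WT mice, in log2 units, red for higher and blue for lower, with colours clipped at 0.8. Most rows of KO mice 3 and 6 are blue and most rows of KO mouse 5 are red, while Cox6a1 and Cox8a are red in 7 of 8 KO mice.

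Genes that build the complexes or control their expression were likewise not called. Of 34 assembly factors of complexes II to V, 0 passed the test in either direction, and the median was -0.047. Of the 34, 26 (76.5%) were below 0, against 49.8% of all genes. Coa7, an assembly factor of complex IV, averaged 5.85 ± 0.17 in KO mice and 6.07 ± 0.10 in WT mice (SD, n = 8 each), and KO minus WT was -0.22 (SE 0.075, limma adjusted p = 0.138). Cox17, which carries copper to complex IV, averaged 7.53 ± 0.15 in KO mice and 7.75 ± 0.13 in WT mice (adjusted p = 0.140). For both genes 6 of 8 KO mice lay below every WT mouse. On the positive side Cox10 and Cox14 differed by 0.092 and 0.046. At an unadjusted p under 0.05, limma gave 6 of the 34 lower and 0 higher. That is 17.6%, against 17.3% of all genes (10.5% higher and 6.82% lower).

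Among 22 regulators of mitochondrial gene expression 0 passed, with a median of -0.045. Tfb2m, a transcription factor of mitochondrial DNA, averaged 7.63 ± 0.08 in KO mice and 7.87 ± 0.14 in WT mice (SD, n = 8 each), and KO minus WT was -0.24 (SE 0.066, limma adjusted p = 0.0721). Lrpprc, which stabilises mitochondrial messages, differed by -0.16 (SE 0.068). Ppargc1a, the coactivator that drives mitochondrial biogenesis, averaged 9.83 ± 0.41 in KO mice and 9.58 ± 0.28 in WT mice, a difference of 0.25 (SE 0.16, adjusted p = 0.421), and Gabpb1 differed by 0.095.

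Subunits encoded by mitochondrial DNA were all lower in the mean, by small amounts. Of 10 measured, 10 were below 0, with a median of -0.10 and a range of -0.16 to -0.068, and 0 were called. Over all genes 49.8% were below 0. At an unadjusted p under 0.05, limma gave 3 lower and 0 higher (30%), against 17.3% of all genes. The 3 were ND2, COX3 and ND4L. The 10 measured included CYTB of complex III (-0.074) and COX1 (-0.083) and COX3 (-0.12) of complex IV. The rest belong to complex I, and none of complex V was measured. ND2 of complex I averaged 13.13 ± 0.13 in KO mice and 13.28 ± 0.07 in WT mice (SD, n = 8 each, limma adjusted p = 0.206). COX3 of complex IV averaged 13.18 ± 0.10 in KO mice and 13.30 ± 0.05 in WT mice (adjusted p = 0.257). Their mean was lowest in KO mouse 2, at 12.93, against 13.05 to 13.20 in the other KO mice and 13.10 to 13.28 in WT mice.

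Complex I, the entry point of the chain for electrons from NADH, gave values close to these. Of 32 complex I subunits 0 were called, 27 were below 0 (84.4%) and the median was -0.033, against 65.9% and -0.026 for the 44 members. The complex I list was chosen by Nduf symbols, so Ndufa4 (-0.050) was counted there and not in complex IV. The difference between these sets was not tested. Over all genes 49.8% were below 0. Ndufa1 (-0.19) and Ndufb11 (-0.22) on the lower side and Ndufa8 (0.13) and Ndufa11 (0.12) on the higher side had the smallest p-values there, with limma adjusted p-values of 0.172 to 0.608.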

How the data were processed

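RNA of gastrocnemius muscle from 16 mice, 8 KO and 8 WT by their titles, was measured with 1 array per mouse. The authors deposited log2 values for each probe set, which the submitters' processing notes credit to RMA and the oligo package, without versions. Base 2 was inferred from the range of the values. RMA equalises probe intensities across arrays before it summarises them, which hides a shift common to all transcripts. The medians of the deposited arrays still ran from 4.43 to 4.61.

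Of 41345 probe sets, 23521 had 1 gene symbol, 1814 several and 16010 none. Probe sets with 1 symbol above the array median on at least 8 of 16 arrays were kept, the brightest per gene, which left 13601 genes. KO and WT mice were compared in limma 3.58.1 (lmFit, eBayes; R 4.3.3), group as the only term, two-sided, with Benjamini-Hochberg adjustment over all genes and a threshold of 0.05. In simulated data for KO against WT with 13601 genes, 80 of 100 genes changed by 0.5 log2 units and 99 of 100 changed by 1 were recovered, with 3 false calls.

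The members and lists were chosen with earlier results of these data known. Named were the 4 members of smallest p in each direction and complex, the isoform pairs, and up to 2 genes per direction of each list of assembly factors, regulators, mitochondrially encoded and complex I subunits. The other members were named to account for every subunit. Liver transcripts (0 of 7 called) averaged 6.65 ± 1.59 in KO mice and 6.01 ± 1.33 in WT mice (SD, n = 8 each). Schwann cell markers (0 of 4) averaged 6.99 and 6.35 and adipocyte markers 6.85 and 6.60 in KO and WT mice, and the 1 red cell marker differed by 1.55 without being called. The precision is limited by the number of arrays. Promoter windows were searched with a script, and figures were drawn with matplotlib 3.10.9.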

Additional observations from a re-analysis of the deposited data

Results flagged for a closer look

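In 3 of the 66 groups of 8 values examined, 1 mouse stood apart, with a gap to its nearest neighbour, relative to the group's whole range, above Dixon's 95% critical value. Chance gives such a gap in about 5% of groups. For Cycs, KO mouse 8 lay at 12.47 and the next KO mouse at 12.29. For Cox7b, KO mouse 2 lay at 9.56 and the next KO mouse at 10.12. WT mouse 1 lay at 10.94 for Cox7b and the next WT mouse at 10.59.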

How the results depend on the processing

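No measured member was called under the filter at the 75th percentile, no filter, centring, quantile normalization, averaging over a gene's probe sets, trended and robust variance, array weights and slow fibre or liver means as covariates. The same held, as settings added after seeing the data, for all probe sets apart (0 of 53 probe sets) and without the 6 mice with high Alb (albumin, a liver transcript, over 9 log2 units). The replicate number as a block (replicate block) called 1, Cox6a1 (0.44, adjusted p = 0.0224), and 213 genes in all. Same-numbered mice share only a number: their deviations correlated at -0.083 to 0.25, with 4 of 8 over 0.1. Without 1 mouse the count of members was 0 to 1, the 1 being Cox6a1 without KO mouse 8. The count over all genes, 249, was 137 with no filter, 145 with the slow fibre and 128 with the liver covariate, and 7 without the mice with high Alb (10 mice left). It ran from 107 to 680 without 1 mouse: 134, 127, 158, 107, 162 and 680 without KO mice 1, 2, 5, 6, 7 and 8, and 160, 154, 129, 131, 143 and 135 without WT mice 1, 2, 3, 5, 6 and 7. The medians of complexes II, III, IV and V were -0.13, -0.16, -0.12 and -0.082 without the mice with high Alb, which leaves KO mice 3, 6, 7 and 8, and -0.075, -0.10, -0.047 and -0.070 with centring. Without 1 mouse they ran from -0.058 to 0.017, -0.096 to -0.013, -0.031 to 0.031 and -0.035 to 0.00035.

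Some differences moved by over 1.5 times with the same sign: without the mice with high Alb Cox4i2 was -0.36, Uqcr11 -0.28, Cox7b -0.17, Atp5g1 -0.082 and Cox6b2 0.082. Averaging probe sets gave -0.24 for Cycs. Centring moved Sdha to -0.13, Sdhc to -0.092, Sdhb to -0.057, Cox8b to -0.12, Cox7a1 to -0.11 and Atp5pb to -0.14. In the other direction it moved Cox7a2 to 0.0072 and Atp5d to 0.033, both nearer 0, and these lists are not complete. Differences near 0 changed sign, none of them called, and the cause was not tested. With centring Sdhd was -0.048, Atp5g2 -0.0018, Atp5c1 -0.032, Atp5b -0.037, Cox6a2 -0.032, Cox4i1 -0.0026 and Atp5g3 -0.051. With quantile normalization Sdhd was -0.0050 and Atp5c1 -0.035, and with array weights Sdhd was -0.0049 and Atp5g3 -0.0028. With the slow fibre covariate Sdhd was -0.014, Cox4i2 0.0055 and Atp5g3 -0.025, and with the liver covariate Sdhd was -0.022, Cox6a2 -0.00051 and Atp5g3 -0.015. Without the mice with high Alb Sdhd was -0.11, Cox7a2 -0.030, Atp5d -0.18, Atp5b -0.049, Cox6a2 -0.094, Cox4i1 -0.061 and Atp5g3 -0.068. Without 1 mouse Sdhb ran from -0.053 to 0.044, Sdhc from -0.066 to 0.0044, Sdhd from -0.040 to 0.047, Cox4i2 from -0.093 to 0.036, Cox6a2 from -0.025 to 0.044, Atp5d from -0.011 to 0.16, Atp5b from -0.0057 to 0.035, Atp5g3 from -0.024 to 0.038 and Cox6a1 from 0.38 to 0.54.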
